A study of Mus musculus with 37 samples.

Results

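The genes described here carry adenosine into cells and break it down. They are Slc29a1, Slc29a2, Ada, Adk, Dpp4, Pnp, Ampd2, Ampd3 and Nt5c2, 9 genes taken by name from the 30892 genes listed for cardiac fibroblasts (CFs), the 20158 genes listed for neonatal rat ventricular myocytes (NRVMs) and the 31053 genes listed for single nonmyocytes. All 9 had a row in the CF and single-cell tables. The NRVM table gave 8 of them, and Slc29a2 was not analysed there.

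Extracellular ATP and AMP are cut to adenosine at the cell surface, and adenosine enters cells through equilibrative nucleoside transporters, of which Slc29a1 encodes ENT1 and Slc29a2 encodes ENT2. Inside the cell adenosine is either rephosphorylated to AMP by adenosine kinase (Adk) or deaminated to inosine by adenosine deaminase (Ada), and purine nucleoside phosphorylase (Pnp) then splits inosine to hypoxanthine. AMP deaminases (Ampd2 and Ampd3) turn AMP into IMP, the cytosolic nucleotidase encoded by Nt5c2 dephosphorylates IMP and GMP, and Dpp4 (CD26) is a cell-surface peptidase that anchors ADA on human cells.

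The study asks how ENPP1, an enzyme that hydrolyses extracellular ATP to AMP, acts on nonmyocytes through the cardiac myocyte. Of its 37 samples, 20 are bulk RNA-Seq libraries of CFs, an immortalized wild-type C57BL/6 line, kept for 24 h or 48 h in medium conditioned by NRVMs that had received vehicle, ENPP1, ATP, ENPP1+ATP or AMP (2 libraries per medium and time). Another 15 are bulk libraries of wild-type Sprague-Dawley NRVMs labelled with conditioned medium of the same 5 names for 24 h (3 per medium). The paper also describes myocytes given ENPP1+ATP myocyte-conditioned medium, without changes in p53-driven apoptosis genes. It does not say there whether these libraries were meant. What the NRVMs received thus rests on the labels, and their groups are called by the labelled medium. The last 2 are single-cell libraries of nonmyocytes from injured C57BL/6 hearts at 7 days after myocardial infarction, 1 labelled wild type (control) and 1 ENPP1CKO, in which tamoxifen given around the injury activates Col1a2CreERT on floxed ENPP1 alleles. The Cre driver is therefore a fibroblast collagen promoter, and the CFs are 1 immortalized line. The study's methods call its replicates biological in general, but the labels do not name a separate culture or animal for each bulk library, so p-values measure the spread between these libraries, which may be technical in part.

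The CF libraries held 32184799 to 115824659 counts and the NRVM libraries 13481389 to 16977980. Of the CF genes 17879 passed the filter on low counts, 8 of the 9 genes of the list among them, and of the NRVM genes 13461 passed, with all 8 listed. Levels are CPM, the usual depth-scaled share of a library's counts, after TMM scaling. All 10 fibroblast markers listed for the analysis had counts in every CF library and summed to between 7220 and 7625 CPM in vehicle medium at 24 h. In NRVMs under vehicle medium the cardiomyocyte markers summed to between 41690 and 43970 CPM and the fibroblast markers to between 24940 and 26320 CPM, so the NRVM values are those of a mixed culture, in which fewer cells of a type and less RNA per cell cannot be told apart.

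Per kilobase of exon, Slc29a1 and Pnp had the highest levels of the list in CFs under vehicle medium at 24 h. Slc29a1 averaged 63.9 CPM per kb (62.0 and 65.9 in the 2 libraries) and Pnp 60.4 CPM per kb (57.8 and 63.0), and these overlapped. Ampd2 followed with 38.9 CPM per kb. Ada at 10.8 CPM per kb and Adk at 8.65 CPM per kb came next, then Nt5c2 at 3.92, Slc29a2 at 1.98 and Ampd3 at 0.837 CPM per kb. Below Slc29a1 and Pnp, no 2 neighbours in this order overlapped between the libraries. The length used joins all annotated exons of a gene, whichever transcripts were present, and the ranges do not cover error in it. In plain CPM Ada (21.6, over 2002 bases) stood below Adk (73.7, over 8526 bases) and Nt5c2 (43.3, over 11037 bases), so its place rests on this length. Dpp4 had 0 to 7 counts in each of the 20 CF libraries, had 0 counts in 7 of them and did not pass the filter, so no comparison is given for it in CFs.

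The genes lie at these positions in the mouse genome (GRCm38). Slc29a1 occupies chr17:45585200-45599606 and Slc29a2 chr19:5023860-5031972. Ada lies at chr2:163726584-163750239, Adk at chr14:21052574-21448569 and Dpp4 at chr2:62330073-62412231. Pnp spans chr14:50931082-50965237, Ampd2 chr3:108074062-108086651, Ampd3 chr7:110768206-110812405 and Nt5c2 chr19:46883317-47015153. Pnp has a close copy, Pnp2, whose gene lies within the span annotated for Pnp, and the reading frames of the pair are identical at 852 of 870 aligned bases (97.9%). Pnp also shares 18.0% of its exon bases with Gm49342 on the same strand. Pnp2 was listed at 0.359 to 1.35 CPM in the CF libraries against 111 to 251 CPM for Pnp, so reads that could belong to either gene may have been split between them by the counting. The exons of Slc29a1, Dpp4, Ampd2, Ampd3, Nt5c2 and Pnp share between 1.11% and 8.95% of their bases with a gene on the other strand, and whether the counting used strand is not given in the sources used here.

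Slc29a1, Adk and Pnp fell together in CFs at 24 h while Ada rose or did not pass the test, so the 250 bases before their RefSeq transcription starts (GRCm38.p6) are shown. The windows are chr17:45599619-45599868 on the minus strand for Slc29a1, chr2:163750240-163750489 on the minus strand for Ada, chr14:21052324-21052573 on the plus strand for Adk and chr14:50944053-50944302 on the plus strand for Pnp. RefSeq lists 8 starts for Slc29a1 and 2 for Adk, of which 1 was used, and 1 each for Ada and Pnp. Each is written 5′ to 3′ along the gene's own strand, and capitals mark matches on either strand to any of 5 motifs searched. The GC box was searched as GGGCGG, a site of Sp1 and related factors that is common near transcription starts. The box bound by the trimeric factor NF-Y was searched as CCAAT. The E-box, a site of basic helix-loop-helix factors, was searched as CACGTG. The half-site of the cAMP response element was searched as TGACG, and the AP-1 site by its usual palindrome with any base in the middle.
Slc29a1: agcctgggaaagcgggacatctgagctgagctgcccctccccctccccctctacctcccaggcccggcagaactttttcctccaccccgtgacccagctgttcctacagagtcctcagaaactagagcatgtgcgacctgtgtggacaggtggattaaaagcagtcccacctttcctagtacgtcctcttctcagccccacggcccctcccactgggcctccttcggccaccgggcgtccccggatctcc
Ada: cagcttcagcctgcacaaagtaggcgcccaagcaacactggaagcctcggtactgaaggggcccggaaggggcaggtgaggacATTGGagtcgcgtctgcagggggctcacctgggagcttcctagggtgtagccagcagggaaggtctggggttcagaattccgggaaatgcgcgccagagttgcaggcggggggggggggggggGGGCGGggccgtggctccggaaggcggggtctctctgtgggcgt
Adk: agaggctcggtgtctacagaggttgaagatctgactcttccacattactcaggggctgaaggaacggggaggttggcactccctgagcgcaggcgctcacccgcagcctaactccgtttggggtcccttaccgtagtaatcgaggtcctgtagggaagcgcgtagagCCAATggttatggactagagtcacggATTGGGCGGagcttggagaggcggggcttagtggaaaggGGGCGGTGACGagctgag
Pnp: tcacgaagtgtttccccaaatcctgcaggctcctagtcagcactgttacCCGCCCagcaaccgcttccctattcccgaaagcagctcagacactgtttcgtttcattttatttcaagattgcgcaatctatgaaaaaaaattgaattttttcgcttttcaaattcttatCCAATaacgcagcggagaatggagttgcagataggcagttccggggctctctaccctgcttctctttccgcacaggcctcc
Adk held 2 GC boxes, 2 CCAAT matches and 1 TGACG, of which a CCAAT match and a GC box overlap and the other GC box runs straight into TGACG. Ada and Pnp each held 1 GC box and 1 CCAAT match, and Slc29a1 held no match in this window. Among 32851 mouse promoter windows of this length, 32.7% held GGGCGG, 33.8% CCAAT, 6.02% CACGTG, 17.8% TGACG and 6.75% the AP-1 site. A match is a run of letters and says nothing of binding.

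In CFs at 24 h, the ENPP1+ATP and AMP media lowered the main transporter and 2 enzymes of the list. Slc29a1, Adk and Pnp fell in both media, Pnp to about 0.496 and 0.537 of its vehicle level. Ada rose in AMP medium alone among the 4 media. For ENPP1+ATP medium 49.1% of all genes tested passed an adjusted p of 0.05, and 3 of 8 listed genes did, all lower. For AMP medium the background was 52.8%, and 4 of 8 passed, 1 higher and 3 lower. The median log2 fold change of the 8 was -0.0068 in ENPP1+ATP medium against -0.0046 over all genes, and -0.12 against -0.0058 in AMP medium. All adjusted p-values here and below are from edgeR's quasi-likelihood test with Benjamini-Hochberg adjustment over all genes tested, and log2 fold changes are given ± SE.

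Slc29a1 stood at 264 and 248 CPM in vehicle medium at 24 h, 156 and 162 CPM in ENPP1+ATP medium and 176 and 181 CPM in AMP medium. The 4 libraries of the ENPP1+ATP and AMP media lay below both vehicle libraries with no overlap. The log2 fold change was -0.69 ± 0.05 in ENPP1+ATP medium (adjusted p = 1.94e-11) and -0.52 ± 0.05 in AMP medium (adjusted p = 1.85e-09). Slc29a2, the ENT2 gene, was at 6.01 and 5.96 CPM in vehicle, 6.07 and 5.59 CPM in ENPP1+ATP and 5.16 and 4.72 CPM in AMP medium. Neither of its differences passed the test (-0.04 ± 0.14, adjusted p = 0.845, and -0.28 ± 0.14, adjusted p = 0.0867).

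Ada, which removes adenosine by deamination, had 21.2 and 21.9 CPM in vehicle medium at 24 h, 22.7 and 23.3 CPM in ENPP1+ATP medium and 32.4 and 29.6 CPM in AMP medium. Both AMP libraries were above all others of that time. The rise in AMP medium was 0.52 ± 0.07 on the log2 scale (adjusted p = 6.59e-07), and the difference in ENPP1+ATP medium was 0.10 ± 0.07 (adjusted p = 0.292). Adk, which returns adenosine to AMP, had 73.4 and 74.0 CPM in vehicle, 51.1 and 57.2 CPM in ENPP1+ATP and 52.6 and 56.5 CPM in AMP medium. The treated libraries overlapped each other and stood clear of vehicle, with log2 fold changes of -0.44 ± 0.06 (adjusted p = 8.4e-07) and -0.43 ± 0.06 (adjusted p = 9.46e-07).

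Pnp, the next enzyme after Ada, moved most at this time. It had 229.8 and 251 CPM in vehicle, 111 and 127 CPM in ENPP1+ATP and 120.5 and 137 CPM in AMP medium. The treated libraries were all below the vehicle libraries, and the log2 fold changes were -1.01 ± 0.07 (adjusted p = 1.99e-10) and -0.90 ± 0.07 (adjusted p = 9.08e-10). Ampd2, Ampd3 and Nt5c2 did not pass at 24 h in either medium. Ampd2 was at 213 and 194 CPM in vehicle and 218 and 222 CPM in AMP medium (0.11 ± 0.05, adjusted p = 0.0575). It passed as a rise with DESeq2 (0.13, adjusted p = 0.0202), RLE size factors (0.14, adjusted p = 0.0247) and a replicate block (0.11, adjusted p = 0.0436), and without the first vehicle library (0.17, adjusted p = 0.0209). Nt5c2 was at 38.7 and 49.7 CPM in the 2 AMP libraries, the widest gap of any group for it. Over the alternatives its log2 fold change lay between -0.16 and 0.20, so its direction turned. The highest value was that without the first AMP library. Each CF group has 2 libraries, so in this and every other CF fit without 1 library the lone library left is assumed to vary like the other groups.

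**Figure D1:**
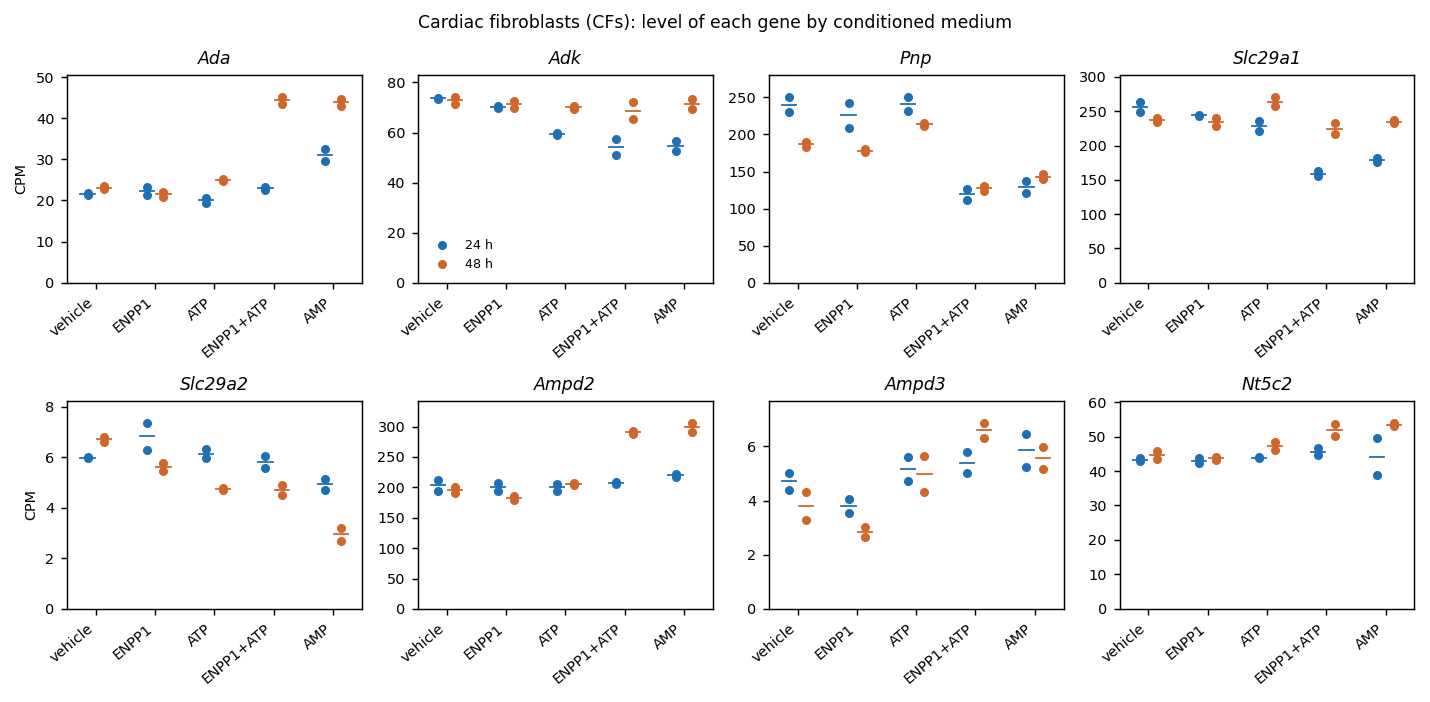
Levels of 8 genes in the 20 CF libraries, in CPM after TMM scaling, by conditioned medium, with 24 h in blue and 48 h in orange. Points are libraries and short lines are group means of 2. Slc29a1 and Pnp drop in the ENPP1+ATP and AMP media at 24 h, and Ada reaches 43.0 to 45.2 CPM in those media at 48 h against 22.8 and 23.5 CPM in vehicle medium.

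ENPP1 alone gave no call in the list in CFs, with 2 libraries per group. The background was 0% and no gene of the 8 passed at either time by edgeR or DESeq2, with 0 of 8 at an unadjusted p under 0.05 at 24 h and 2 of 8 at 48 h, these being Ampd2 (-0.11) and Ampd3 (-0.43). ATP medium at 24 h had a background of 11.1% and 2 of 8 genes lower. Adk was at 59.1 and 59.7 CPM, below both vehicle libraries (-0.31 ± 0.06, adjusted p = 0.000709), and Slc29a1 was at 236 and 222 CPM (-0.16 ± 0.05, adjusted p = 0.0286). The Slc29a1 call was lost without the second ATP library (-0.11, adjusted p = 0.383) or the first vehicle library (-0.12, adjusted p = 0.383). At 48 h ATP medium had a background of 7.83%, and only Slc29a2 of the 8 passed, at 4.80 and 4.72 CPM against 6.61 and 6.82 CPM in vehicle (-0.50 ± 0.14, adjusted p = 0.0261). Leaving out any 1 of the 4 libraries ended that call, with adjusted p between 0.158 and 0.173, as did testing with no low-count filter (adjusted p = 0.0703). Slc29a1 (0.15, adjusted p = 0.0512) and Pnp (0.20, adjusted p = 0.122) did not pass, and both did with DESeq2 (adjusted p = 0.014 and 0.0497), a replicate block (0.0466 and 0.046) and only the groups compared (0.00905 and 0.00146). Slc29a1 also passed with RLE size factors (adjusted p = 0.0372) and Pnp with no low-count filter (adjusted p = 0.00744).

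ENPP1+ATP medium was also compared with ATP medium, which differs from it by the enzyme. At 24 h the background was 43.9% and 3 of 8 genes passed. Pnp was lower (-1.02 ± 0.07, adjusted p = 3.58e-10) and Slc29a1 was lower (-0.52 ± 0.05, adjusted p = 4.32e-09). Ada was higher (0.20 ± 0.07, adjusted p = 0.0314), a call lost with no low-count filter (0.17, adjusted p = 0.184), without the second ATP library (0.14, adjusted p = 0.248) or without either ENPP1+ATP library (0.22 and 0.18, adjusted p = 0.0762 and 0.143). Adk, which did not pass (-0.13, adjusted p = 0.0816), passed without the second ENPP1+ATP library (-0.22, adjusted p = 0.0194). At 48 h the background was 39.5% and 4 of 8 passed. Ada (0.82 ± 0.07, adjusted p = 1.05e-09) and Ampd2 (0.50 ± 0.05, adjusted p = 1.49e-08) were higher, and Pnp (-0.75 ± 0.07, adjusted p = 4.32e-08) and Slc29a1 (-0.23 ± 0.05, adjusted p = 0.00039) were lower. Ampd3 (0.41, adjusted p = 0.0665) passed without the second ATP library (0.60, adjusted p = 0.0396).

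AMP medium was compared with ENPP1+ATP medium last. At 24 h the background was 6.25% and 2 of 8 passed, both higher in AMP medium. Ada differed by 0.43 ± 0.07 (adjusted p = 0.000682), and Slc29a1 by 0.17 ± 0.05 (adjusted p = 0.0433), a call lost when any 1 of the 4 libraries was left out (adjusted p between 0.0792 and 0.333), with no low-count filter (adjusted p = 0.064) and with only the groups compared (adjusted p = 0.112). Nt5c2 (-0.04, adjusted p = 0.835) passed without the second AMP library (-0.24, adjusted p = 0.0397). At 48 h the background was 0.162% and no gene of the 8 passed by edgeR, with 2 of 8 at an unadjusted p under 0.05. DESeq2 called 1, Slc29a2, which was at 2.69 and 3.21 CPM in AMP medium against 4.52 and 4.92 CPM in ENPP1+ATP medium (-0.68 ± 0.15 and adjusted p = 0.0603 by edgeR, adjusted p = 0.0256 by DESeq2), and it also passed with no low-count filter (adjusted p = 0.0312).

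At 48 h in the ENPP1+ATP and AMP media, 4 of the 8 genes were higher and 2 lower in each medium. The genes higher were Ada, Ampd2, Ampd3 and Nt5c2 and those lower Pnp and Slc29a2 in both, while Slc29a1 and Adk no longer passed. The background was 45.2% in ENPP1+ATP medium and 44.0% in AMP medium. The median log2 fold change of the 8 was 0.07 and 0.12, against -0.03 over all genes in each.

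At 48 h Ada reached 45.2 and 43.6 CPM in ENPP1+ATP medium and 43.0 and 44.7 CPM in AMP medium, against 23.5 and 22.8 CPM in vehicle. The groups were apart by about the whole vehicle level, with log2 fold changes of 0.94 ± 0.07 (adjusted p = 5.09e-11) and 0.92 ± 0.07 (adjusted p = 6.99e-11). Ampd2, the more abundant AMP deaminase gene here, was at 288 and 292 CPM in ENPP1+ATP medium and 292 and 306 CPM in AMP medium, against 201.1 and 191 CPM in vehicle. It rose by 0.56 ± 0.05 (adjusted p = 1.02e-09) and 0.61 ± 0.05 (adjusted p = 2.74e-10). Ampd3 was low throughout, at 4.33 and 3.29 CPM in vehicle, 6.86 and 6.33 CPM in ENPP1+ATP and 5.17 and 5.99 CPM in AMP medium. Its log2 fold changes were 0.79 ± 0.18 (adjusted p = 0.000705) and 0.55 ± 0.18 (adjusted p = 0.0149), the latter lost without the second AMP library (0.44, adjusted p = 0.131) or the second vehicle library (0.36, adjusted p = 0.221).

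The smaller rises and the falls at 48 h were as follows. Nt5c2, the IMP and GMP nucleotidase gene, was at 45.7 and 43.6 CPM in vehicle, 53.8 and 50.3 CPM in ENPP1+ATP and 53.9 and 53.0 CPM in AMP medium (0.22 ± 0.08, adjusted p = 0.0209, and 0.26 ± 0.08, adjusted p = 0.00761). The ENPP1+ATP call was lost without the first ENPP1+ATP library (0.17, adjusted p = 0.143) or the second vehicle library (0.18, adjusted p = 0.167), and the AMP call without the second vehicle library (0.22, adjusted p = 0.0845). Pnp remained below vehicle, at 124 and 131 CPM and at 146 and 139.7 CPM against 183 and 190.1 CPM (-0.55 ± 0.07, adjusted p = 2.1e-06, and -0.38 ± 0.07, adjusted p = 0.000177). Between the vehicle libraries of 48 h and 24 h, Pnp was the only gene of the 8 that passed, lower at 48 h (-0.36 ± 0.07, adjusted p = 0.00385, background 4.88%). That call was lost without the second 24 h library (-0.30, adjusted p = 0.0992) or the first 48 h library (-0.33, adjusted p = 0.0872). Slc29a2, at 6.61 and 6.82 CPM in vehicle, fell to 4.52 and 4.92 CPM in ENPP1+ATP medium (-0.51 ± 0.14, adjusted p = 0.0043) and to 2.69 and 3.21 CPM in AMP medium (-1.18 ± 0.15, adjusted p = 2.8e-07).

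**Figure D2:**
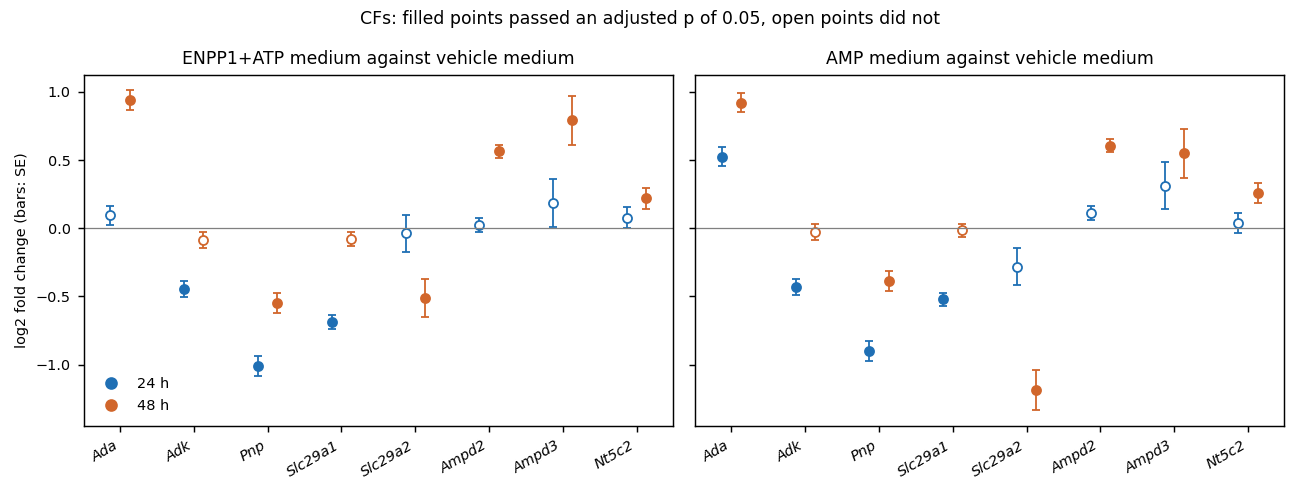
Log2 fold change against vehicle medium (y axis, bars are SE) of the 8 genes tested in CFs, for ENPP1+ATP medium on the left and AMP medium on the right, at 24 h in blue and 48 h in orange. Filled points passed an adjusted p of 0.05 and open points did not. Slc29a1 and Adk sit below 0 at 24 h and near 0 at 48 h in both panels, and Ada is highest of the 8 at 48 h in both.

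The change between the times was tested directly as the effect at 48 h minus the effect at 24 h. For ENPP1+ATP medium the background was 30.0%, and 5 of 8 genes passed, all with the higher effect at 48 h. For AMP medium it was 31.7%, and 6 of 8 passed, 5 with the higher effect at 48 h. Slc29a1 differed by 0.61 ± 0.07 in ENPP1+ATP medium (adjusted p = 2.6e-07), having stood at 217 and 232 CPM at 48 h against 240.4 and 234 CPM in vehicle. In AMP medium it differed by 0.51 ± 0.07 (adjusted p = 2.86e-06), with 237 and 233 CPM at 48 h. Ada differed by 0.84 ± 0.10 (adjusted p = 4.91e-07) and 0.40 ± 0.10 (adjusted p = 0.00289), and Ampd2 by 0.54 ± 0.07 (adjusted p = 1.84e-06) and 0.49 ± 0.07 (adjusted p = 5.67e-06). Adk (0.36 and 0.41) and Pnp (0.46 and 0.51) also passed in both media. Slc29a2 went the other way in AMP medium (-0.90 ± 0.20, adjusted p = 0.00102), and in ENPP1+ATP medium it did not pass (-0.47 ± 0.20, adjusted p = 0.0732). Ampd3 in ENPP1+ATP medium (0.60, adjusted p = 0.0705) passed without the first 48 h vehicle library (0.82, adjusted p = 0.0394), and Nt5c2 in AMP medium (0.22, adjusted p = 0.13) without the second 24 h AMP library (0.42, adjusted p = 0.000616).

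Other measured values stand beside these CF results. The 4 media share their vehicle libraries at each time, so the values of the media are given side by side and not as separate evidence. The fibroblast marker sum fell to between 3611 and 3707 CPM in ENPP1+ATP medium and between 2831 and 3055 CPM in AMP medium at 24 h, and was 3880 to 4096 CPM and 4077 to 4362 CPM at 48 h. The sum of 5 cycling genes was 2723 to 2993 CPM and 2600 to 2900 CPM at 24 h against 1135 to 1152 CPM in vehicle, and 1671 to 1727 CPM and 1631 to 1649 CPM at 48 h against 1178 to 1193 CPM. Sums of 3 other marker lists also differed between the same media and were higher in both at 48 h than at 24 h. The sum of 10 macrophage markers was 15.83 to 18.31 CPM in vehicle at 24 h, 34.48 to 42.26 CPM in ENPP1+ATP and 58.66 to 61.81 CPM in AMP medium, and at 48 h it was 16.75 to 18.06, 73.05 to 83.88 and 77.87 to 88.45 CPM, with 0 to 3 of its genes at 0 in a library. That of 8 smooth muscle or pericyte markers was 115.7 to 119.5, 161.0 to 163.2 and 170.2 to 182.1 CPM at 24 h and 127.9 to 132.7, 357.7 to 371.6 and 401.8 to 429.9 CPM at 48 h. The 9 endothelial markers summed to 674.4 to 694.1, 660.8 to 672.4 and 688.1 to 736.3 CPM at 24 h, where AMP medium overlapped vehicle, and to 554.4 to 566.5, 860.4 to 872.4 and 838.7 to 847.9 CPM at 48 h. In the same order, the sum of 6 dendritic markers was 571.3 to 585.8, 568.6 to 580.8 and 505.3 to 519.8 CPM at 24 h and 481.2 to 507.6, 551.4 to 609.5 and 625.7 to 631.6 CPM at 48 h. That of 10 cardiomyocyte markers was lower in both media, at 23.64 to 25.13, 16.81 to 17.29 and 14.59 to 15.71 CPM at 24 h and 19.75 to 24.13, 16.48 to 17.83 and 13.67 to 17.12 CPM at 48 h. The part of these lists in the results was not tested.

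Of 23 other genes of adenosine and purine handling, 19 were tested in CFs, and 6 were higher and 6 lower in ENPP1+ATP medium at 24 h (background 49.1%), 9 and 8 in AMP medium at 24 h (52.8%), 5 and 7 in ENPP1+ATP medium at 48 h (45.2%) and 5 and 8 in AMP medium at 48 h (44.0%). Slc29a4, which encodes the plasma membrane monoamine transporter of the same family (PMAT, ENT4), had 0.0788 and 0.12 CPM in vehicle at 24 h, from 9 and 5 counts, 1.74 and 2.13 CPM in ENPP1+ATP medium and 2.87 and 3.44 CPM in AMP medium. At 48 h it stood at 4.89 and 4.09 CPM and 6.13 and 6.37 CPM in those media, against 6 and 10 counts in vehicle. It passed the filter on low counts through the media where it was high, so its size of change is not given. Nt5e (CD73), the surface nucleotidase that makes adenosine from AMP, fell in all 4 comparisons, in ENPP1+ATP medium at 24 h (log2 fold change -1.75, from 1.57 and 1.27 CPM to 0.441 and 0.407 CPM) and in AMP medium at 48 h from 1.60 and 1.98 CPM to 0.288 and 0.158 CPM, which are 12 and 7 counts. Aprt, which salvages adenine to AMP, was at 64.0 and 71.8 CPM in vehicle at 48 h and rose to 126 and 132 CPM (0.92 ± 0.06) and to 146 and 148 CPM (1.11 ± 0.06). Ampd1, the muscle AMP deaminase gene, passed at 24 h in both media, at levels under 1 CPM and with 9 and 5 counts in vehicle, so its size of change is not given either.

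Over the 10 CF groups, the genes outside the list whose centred log2 CPM followed each strongly changed gene most closely were as follows. For Pnp they were Psmg4 and Loxl3, with root mean square differences of 0.0818 and 0.0850 on the log2 scale, where Pnp itself ranged over 1.02. For Slc29a1 they were Arhgap24 (0.0550) and Suclg2 (0.0616), over a range of 0.731. For Ada they were Tnfsf12 (0.0559) and Ift27 (0.0796), over a range of 1.15. These are descriptions over 10 group means that share libraries.

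In NRVMs the main transporter gene Slc29a1 did not pass in any medium. Ampd3, Ampd2 and Nt5c2 rose and Adk, Ada and Dpp4 fell in each of the ATP, ENPP1+ATP and AMP media. The background was 59.9% for ATP medium, with 3 of 8 genes higher and 3 lower, 56.0% for ENPP1+ATP medium, with 3 higher and 4 lower, and 57.2% for AMP medium, with 3 higher and 4 lower. The median log2 fold changes of the 8 were -0.03, -0.15 and -0.11, against 0.0064, 0.0079 and 0.0088 over all genes. ENPP1 alone had a background of 0% and no gene of the 8 passed by edgeR or DESeq2, with 2 of 8 at an unadjusted p under 0.05. These were Pnp (-0.14) and Dpp4 (-0.40 ± 0.10, adjusted p = 0.411).

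Adk moved most in ATP medium. It had 51.5, 55.1 and 52.3 CPM in vehicle, 17.5, 18.5 and 17.4 CPM in ATP, 25.9, 29.2 and 25.8 CPM in ENPP1+ATP and 34.5, 35.3 and 35.9 CPM in AMP medium. The 4 groups did not overlap at all, with vehicle highest and ATP lowest. The log2 fold changes were -1.57 ± 0.07 (adjusted p = 4.62e-23), -0.97 ± 0.07 (adjusted p = 1.58e-16) and -0.59 ± 0.07 (adjusted p = 1.89e-10). Ada was lowest in ENPP1+ATP medium instead, at 4.16, 3.90 and 4.52 CPM against 8.94, 9.30 and 8.06 CPM in vehicle (-1.06 ± 0.15, adjusted p = 1.09e-07). In ATP medium it had 5.83, 6.71 and 5.60 CPM (-0.54 ± 0.14, adjusted p = 0.00149), and in AMP medium 6.98, 5.75 and 5.4 CPM (-0.54 ± 0.15, adjusted p = 0.00169).

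Dpp4, scarcely counted in CFs, had 21.3, 23.2 and 27.2 CPM in NRVMs under vehicle medium. It stood at 10.1, 11.2 and 12.1 CPM in ATP, 10.4, 11.1 and 8.72 CPM in ENPP1+ATP and 13.3, 12.8 and 12.2 CPM in AMP medium, all below vehicle. The log2 fold changes were -1.10 ± 0.11 (adjusted p = 5.81e-12), -1.24 ± 0.11 (adjusted p = 3.92e-13) and -0.90 ± 0.11 (adjusted p = 1.15e-09). Slc29a1 lay between 16.1 and 23.1 CPM over all 15 libraries with overlapping groups, and its log2 fold changes against vehicle were between -0.08 and 0.10. Pnp fell in ENPP1+ATP medium (33.2, 36.8 and 34.3 CPM against 38.9, 40.4 and 42.7 CPM, -0.22 ± 0.07, adjusted p = 0.00327) and in AMP medium (31.9, 32.8 and 33.4 CPM, -0.31 ± 0.07, adjusted p = 7.01e-05).

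Ampd3, the erythrocyte-type AMP deaminase gene, rose most of the list in NRVMs. It went from 16.4, 17.2 and 19.4 CPM in vehicle to 41.6, 47.1 and 43.7 CPM in ATP, 44.7, 41.7 and 45.3 CPM in ENPP1+ATP and 36.4, 38.6 and 36.1 CPM in AMP medium. No treated library came near vehicle, and the log2 fold changes were 1.32 ± 0.08 (adjusted p = 7.43e-19), 1.31 ± 0.08 (adjusted p = 1.54e-18) and 1.07 ± 0.08 (adjusted p = 2.32e-15). Ampd2 rose most in ATP medium, to 69.9, 70.8 and 65.5 CPM from 45.9, 47.2 and 43.0 CPM (0.60 ± 0.06, adjusted p = 3.6e-12). Its rise in ENPP1+ATP medium (0.16 ± 0.06, adjusted p = 0.0178) was lost without the second ENPP1+ATP library (0.13, adjusted p = 0.102) or vehicle replicate 3 (0.13, adjusted p = 0.105). Nt5c2 was at 70.4, 65.6 and 72.8 CPM in vehicle and 106, 102 and 97.1 CPM in AMP medium, the highest group (0.55 ± 0.05, adjusted p = 2.77e-12), and it also rose in ATP (0.30 ± 0.05) and ENPP1+ATP medium (0.42 ± 0.05).

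**Figure D3:**
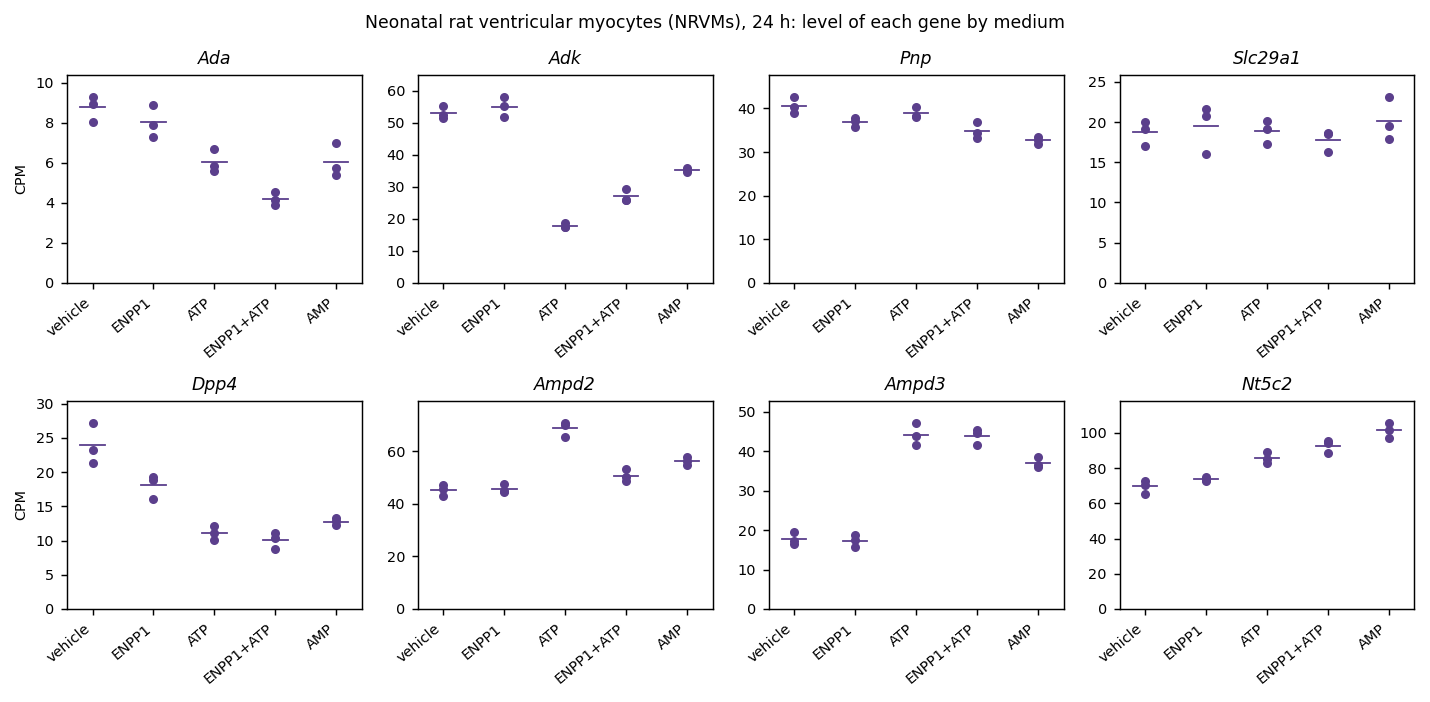
Levels of 8 genes in the 15 NRVM libraries at 24 h, in CPM after TMM scaling, by medium. Points are libraries and short lines are group means of 3. Adk is lowest in ATP medium at 17.4 to 18.5 CPM, Ampd3 stands at 36.1 to 47.1 CPM in the ATP, ENPP1+ATP and AMP media against 16.4 to 19.4 CPM in vehicle, and Slc29a1 overlaps in all groups.

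Between ENPP1+ATP and ATP medium the NRVM background was 27.5% and 3 of 8 genes passed. Adk was higher in ENPP1+ATP medium (0.60 ± 0.08, adjusted p = 2.13e-08), Ampd2 was lower (-0.44 ± 0.06, adjusted p = 4.43e-08) and Ada was lower (-0.53 ± 0.16, adjusted p = 0.0093). The Ada call was lost without the second ATP library (-0.45, adjusted p = 0.0648), and Pnp (-0.16, adjusted p = 0.0565) passed without the second ENPP1+ATP library (-0.20, adjusted p = 0.0373). Between AMP and ENPP1+ATP medium the background was 9.66% and 3 of 8 passed, with Adk (0.39 ± 0.07, adjusted p = 9.08e-05) and Ada (0.53 ± 0.16, adjusted p = 0.0252) higher and Ampd3 (-0.25 ± 0.07, adjusted p = 0.0183) lower in AMP medium. The Ada call was lost when only the groups compared were fitted (0.52, adjusted p = 0.055) and without the first AMP library (0.41, adjusted p = 0.181), the first ENPP1+ATP library (0.52, adjusted p = 0.0713) or the second (0.48, adjusted p = 0.11). That of Ampd3 was lost without replicate 1 or 3 of AMP medium (adjusted p = 0.0653 and 0.0627) or replicate 1 or 3 of ENPP1+ATP medium (adjusted p = 0.0754 and 0.0852). Dpp4 (0.34, adjusted p = 0.0552) passed without the second ENPP1+ATP library (0.42, adjusted p = 0.0433).

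The NRVM marker sums moved with the media too. The fibroblast markers summed to 8451 to 8914 CPM in ENPP1+ATP, 10550 to 11890 CPM in ATP and 11730 to 12530 CPM in AMP medium, all under the vehicle range. The cardiomyocyte markers summed to 22060 to 23880 CPM in ATP medium, where Adk was lowest, 34410 to 36140 CPM in ENPP1+ATP and 40130 to 42940 CPM in AMP medium, the latter overlapping vehicle. Of each list 9 of 10 genes were in the table, and none of these was at 0 in any library. Of the other lists, the macrophage sum was 9.08 to 9.44 CPM in vehicle, 20.1 to 22.4 CPM in ATP, 12.1 to 15.3 CPM in ENPP1+ATP and 12.8 to 16.5 CPM in AMP medium, with up to 4 of 9 genes at 0. The endothelial sum was 238 to 293 CPM in vehicle and between 144.5 and 224.7 CPM over the libraries of those 3 media, the smooth muscle or pericyte sum 2396 to 2533 CPM and between 1875 and 2050 CPM, and the dendritic sum 67.0 to 77.5 CPM and between 35.1 and 42.3 CPM. The cycling sum was 324 to 346.5 CPM in vehicle and 406 to 433 CPM in AMP medium, with ENPP1+ATP and ATP medium overlapping vehicle. The part of these lists in the results was not tested.

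Of the other pathway genes 18 were tested in NRVMs, with 4 higher and 5 lower in ATP medium (background 59.9%), 4 and 4 in ENPP1+ATP medium (56.0%) and 5 and 5 in AMP medium (57.2%). Slc29a4 had 17, 18 and 22 counts in vehicle (1.17, 1.24 and 1.67 CPM) and 2, 1 and 3 counts in ENPP1+ATP medium (0.141, 0.0639 and 0.194 CPM). It passed the filter through the groups where it was high, and its size of change is not given. Gda, the guanine deaminase gene, was at 0.894, 0.965 and 0.609 CPM in vehicle and 3.87, 4.60 and 4.85 CPM in ENPP1+ATP medium. Its vehicle levels were under 1 CPM, so its size of change is not given either. Nt5e had 10.5, 9.92 and 12.2 CPM in vehicle and fell to 5.66, 4.49 and 3.44 CPM in AMP medium (-1.26 ± 0.18, adjusted p = 2.09e-07).

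In the single-cell libraries Enpp1 was checked first. Over all cells kept it had 567 counts (21.1 CPM) with the knockout and 1519 counts (68.5 CPM) in control. In fibroblast-like cells it stood at 28.8 CPM (95% limits 26.2 to 31.5) against 129 CPM (122 to 136), a ratio of 0.223. The ENPP1CKO library held 7460 barcodes, of which 7252 cells were kept at a median of 3365 counts, and the control library 5347, of which 5236 were kept at a median of 3701. The libraries have 68 barcode sequences in common. Each genotype is 1 library, so no test is possible, and all limits are exact intervals that cover counting error only.

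Clustering without the listed genes gave 18 clusters, named from fixed markers where at least 3 were found and the share of that list found led that of any other list by 0.15. Of the kept barcodes, 3721 (ENPP1CKO) and 1858 (control) were fibroblast-like, and macrophage-like cells numbered 2053 and 2470 and endothelial-like cells 932 and 191. The largest share of ENPP1CKO fibroblast-like cells was in cluster 2, led by Thbs4 and Cilp (1840 cells against 357), and that of control ones in cluster 0, led by Eln and Sfrp2 (971 against 1429 in ENPP1CKO). Cluster 1 held the most macrophage-like cells of both libraries, while cluster 5, with Ccl24 among its leading genes, had 55 against 813. Cluster 4 held most endothelial-like cells of both. A cluster (40 and 194 cells) with 6 of 6 neutrophil markers was left unnamed because it also had 9 of 10 macrophage markers. A cluster led by Clu, with Saa3 and Wt1 among its leading genes (28 and 117 cells), was left unnamed after its genes were seen.

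Ada and Adk were highest in fibroblast-like cells among the 3 large classes. Adk stood there at 67.7 CPM (63.8 to 71.8) in ENPP1CKO and 66.2 CPM (61.3 to 71.3) in control, against 19.5 and 22.0 CPM in macrophage-like cells. Ada stood at 25.6 and 40.4 CPM in fibroblast-like cells and 11 and 9.30 CPM in macrophage-like cells. In endothelial-like cells Ada had 10 counts (5.83 CPM, 2.79 to 10.7) in ENPP1CKO and 0 in control, where 3 counts would be 5.39 CPM and the exact upper limit was 6.62 CPM, so the limits overlap.

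Slc29a1 was highest in endothelial-like and fibroblast-like cells. It stood at 153 CPM (135 to 173) and 207 CPM (171 to 248) in the former and at 146 CPM (140 to 151) and 169.7 CPM (162 to 178) in the latter, ENPP1CKO first, against 58.0 and 58.6 CPM in macrophage-like cells. Slc29a2 had no more than 12 counts in any class and library. Pnp was broad, from 101 to 129.9 CPM over the 3 large classes. Dpp4 was concentrated in dendritic-like cells, with 31 counts (84.8 CPM, 57.6 to 120.3) and 36 counts (87.7 CPM, 61.4 to 121) from 81 and 96 cells. In endothelial-like cells Dpp4 had 0 counts in both libraries, where 3 counts would be 1.75 and 5.39 CPM and the exact upper limits were 2.15 and 6.62 CPM.

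The AMP and IMP enzymes split between the classes. Ampd3 was highest in macrophage-like cells among the large classes, at 11.8 CPM (9.41 to 14.6) and 16.1 CPM (13.5 to 19.1), with 1.64 and 1.06 CPM in fibroblast-like cells. Its limits overlapped those in endothelial-like cells, at 5.83 CPM (2.79 to 10.7) and 7.18 CPM (1.96 to 18.4). Within macrophage-like cells it stood at 33.0 CPM in the control cells of cluster 5, 14.1 and 15.7 CPM in cluster 1 and 6.86 and 4.54 CPM in cluster 3. Ampd2 went the other way, at 8.48 and 10.7 CPM in fibroblast-like and 3.37 and 5.65 CPM in macrophage-like cells. Nt5c2 stood at 24.2 and 22.0 CPM in macrophage-like and 13.7 and 11.5 CPM in fibroblast-like cells.

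**Figure D4:**
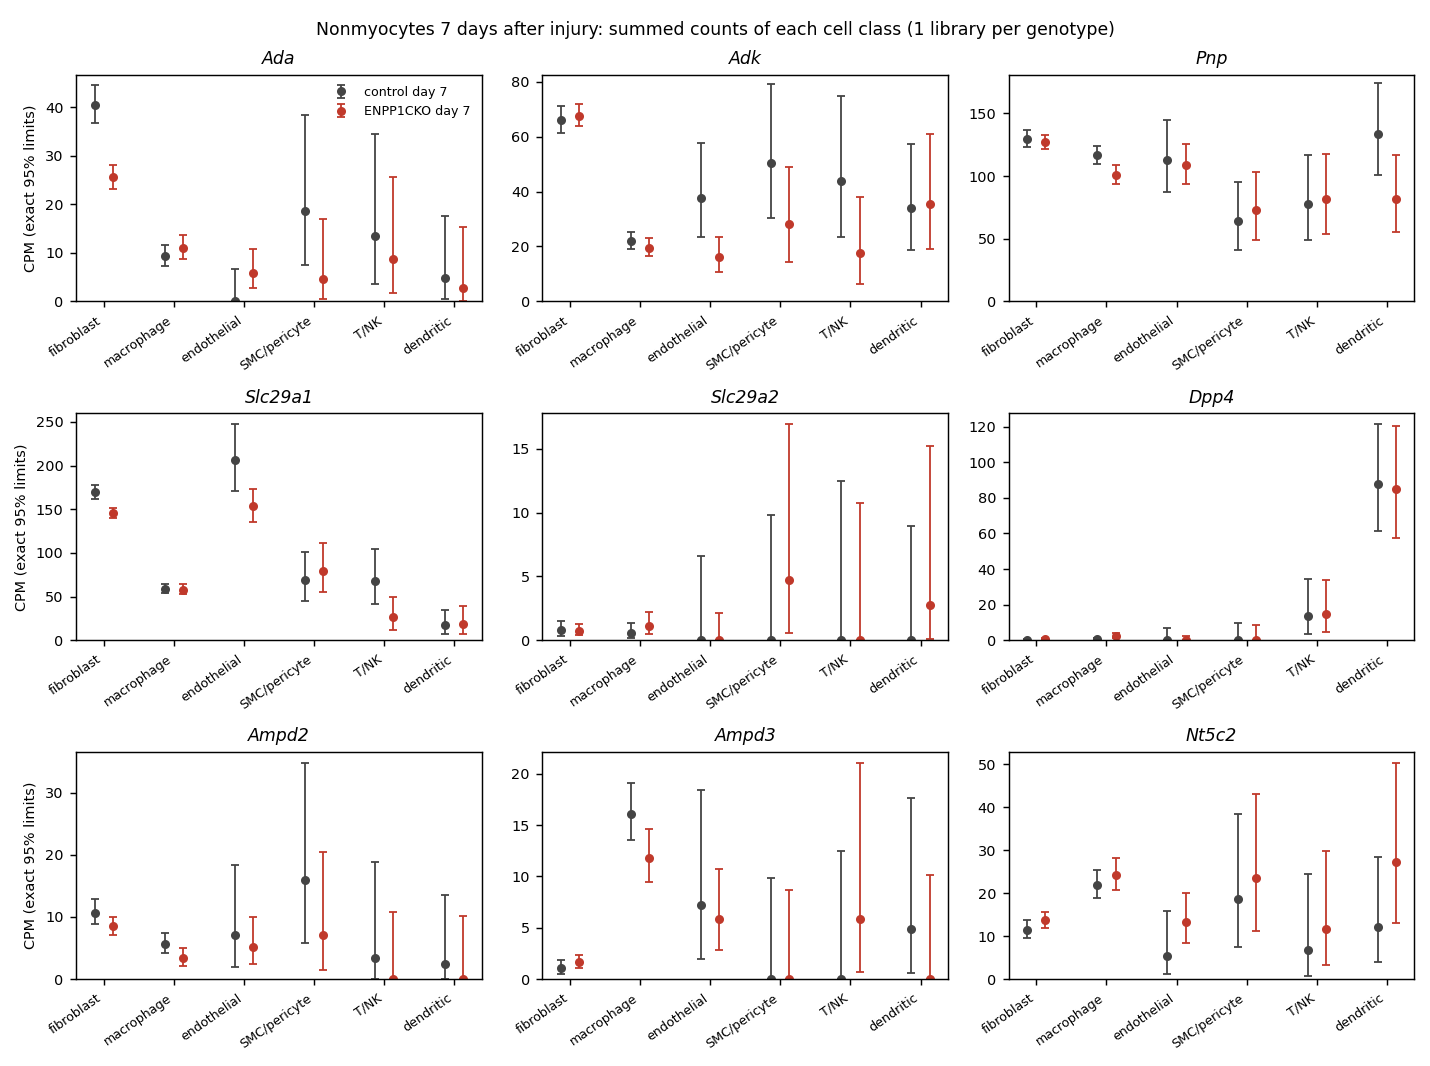
Levels of the 9 genes in 6 cell classes of the control library (grey) and the ENPP1CKO library (red), as CPM of summed counts with exact 95% limits for counting error. There is 1 library per genotype. Dpp4 stands apart in dendritic-like cells at 84.8 and 87.7 CPM and Slc29a1 in fibroblast-like and endothelial-like cells, while the limits of Ampd3 in macrophage-like and endothelial-like cells overlap.

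Between the libraries, Ada was the gene of the list with the clearest difference in fibroblast-like cells. It had 422 counts from 3721 ENPP1CKO cells (25.6 CPM, 23.2 to 28.1) and 420 counts from 1858 control cells (40.4 CPM, 36.7 to 44.5). The ratio of ENPP1CKO to control was 0.632 (0.551 to 0.725). In these cells 14.3% of the 12759 genes with enough counts were past 1.5-fold either way, and 2 of 8 listed genes were, Ada lower and Ampd3 higher. Ampd3 rested on 27 and 11 counts, and its ratio of 1.54 had limits of 0.741 to 3.45. The median ratio of the 8 was 0.960, against 1.005 over all genes. After thinning to 1000 counts per cell, which left out 110 ENPP1CKO and 43 control cells, Ada stood at 0.668, just short of a 1.5-fold difference. Median counts per cell in this class were 4049 (ENPP1CKO) and 5134 (control). In the same order, its fibroblast markers summed to 45100 and 42540 CPM and its cycling markers to 43.0 and 88.87 CPM. The macrophage sum was 339.5 and 596.0 CPM, the endothelial sum 169.4 and 103.5 CPM and the cardiomyocyte sum 35.97 and 15.12 CPM. The part of these markers was not tested.

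The Ada difference was smaller inside the large fibroblast-like clusters. In cluster 0 Ada stood at 46.9 CPM (ENPP1CKO) and 51.8 CPM (control), a ratio of 0.906 (0.757 to 1.08). In cluster 2, where both libraries were low, it stood at 13.2 and 18.0 CPM, a ratio of 0.731 (0.496 to 1.10), and in cluster 6, led by Col11a1 and Acta2, at 31.2 and 39.5 CPM, a ratio of 0.790 (0.519 to 1.17). These 3 intervals include 1. Cluster 11, led by Ifit3 and other interferon-induced genes, had 6 and 20 counts and a ratio of 0.238 (0.0782 to 0.614). The cluster with the lowest Ada of these 3 large ones, cluster 2, held 1840 of the 3721 ENPP1CKO and 357 of the 1858 control cells of the class.

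Slc29a1 behaved differently over the same clusters. Its ratio over all fibroblast-like cells was 0.857 (0.806 to 0.912). In cluster 0 it stood at 114 and 151 CPM, a ratio of 0.757 (0.679 to 0.844), in cluster 2 at 163 and 241 CPM, a ratio of 0.676 (0.608 to 0.752), and in cluster 6 at 147 and 152 CPM, a ratio of 0.967 (0.8 to 1.16). In clusters 10 and 11 the ratios were 1.05 (0.664 to 1.73) and 0.970 (0.721 to 1.31). The difference was thus larger within clusters 0 and 2 than over the class, and their limits leave out 1. After thinning, the ratio over the class was 0.727.

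**Figure D5:**
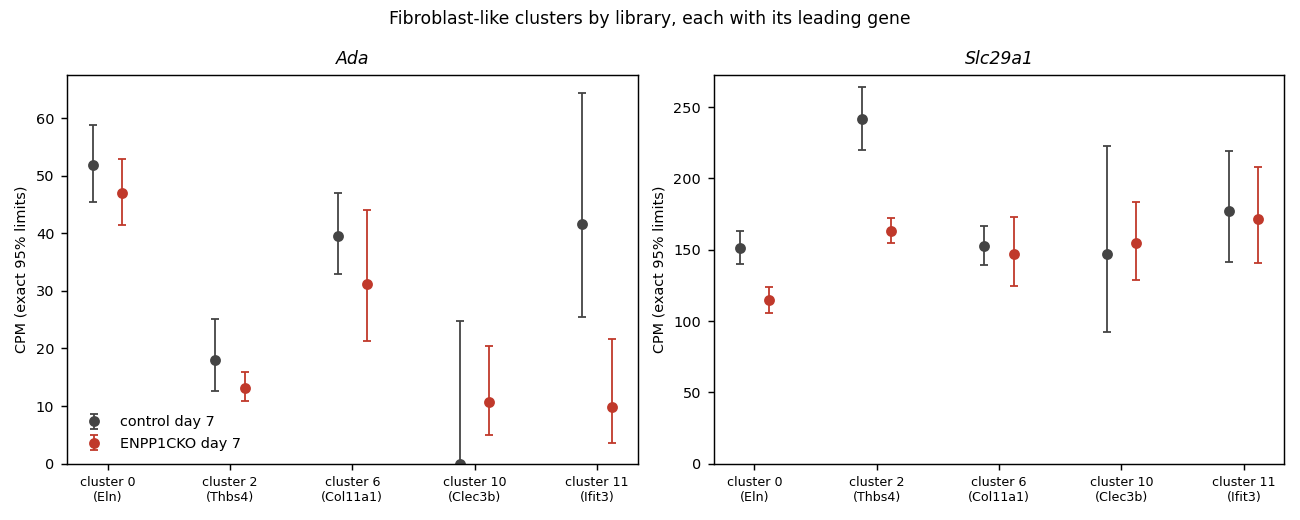
Ada (left) and Slc29a1 (right) in the 5 fibroblast-like clusters, each named with its leading gene, as CPM of summed counts with exact 95% limits, control in grey and ENPP1CKO in red. The limits of Ada overlap between libraries in clusters 0, 2 and 6, and those of Slc29a1 do not overlap in clusters 0 and 2.

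In macrophage-like cells 18.8% of genes were past 1.5-fold, and 2 of 8 listed genes were. Dpp4 had 17 counts against 6, a ratio of 3.38 (1.27 to 10.5), with most of the counts in cluster 3, led by Cd74 and H2-Eb1 (11 and 5 counts). Ampd2 had 24 counts against 48, a ratio of 0.597 (0.350 to 0.994), of which 30 of the 48 lay in cluster 5, and without the clusters that are mostly of 1 library its ratio was 1.08. Ampd3 had a ratio of 0.732 (0.551 to 0.968), which was 0.963 without those clusters and 0.542, past 1.5-fold, after thinning. Ampd2 stood at 0.357 after thinning, and Dpp4 then fell short of 20 counts. Thinning left out 63 ENPP1CKO and 194 control cells of this class and gave each remaining cell equal weight. In control, the median count per cell was 1749 in cluster 5 and 3783 in cluster 1. The part of this weighting in the thinned ratios was not tested. The median ratio of the 8 was 0.939, against 0.914 over all genes.

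In endothelial-like cells 26.4% of genes were past 1.5-fold, and only 4 listed genes had enough counts. Adk had 28 counts against 21, a ratio of 0.433 (0.237 to 0.802), and Nt5c2 had 23 against 3, a ratio of 2.49 (0.752 to 12.95). Slc29a1 had a ratio of 0.742 (0.594 to 0.932) and Pnp one of 0.964 (0.721 to 1.30). The median counts per cell were 1472 (ENPP1CKO) and 2597 (control), and the endothelial markers summed to 25520 and 12640 CPM, so cells of the 2 libraries differed in depth and marker level in this class. After thinning every cell to 1000 counts, which left out 241 ENPP1CKO and 16 control cells, Slc29a1 had a ratio of 0.714 and Pnp one of 1.09, while Adk and Nt5c2 fell short of 20 counts and have no thinned ratio. The part of the marker level was not tested.

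Among the 23 other pathway genes, 17 had enough counts in macrophage-like cells, and 4 were past 1.5-fold, all lower in the ENPP1CKO library. Of all 10928 genes with enough counts in that class, 464 were higher and 1587 lower (18.8% in all), so lower values were the more frequent over all genes too. The libraries also differed in the cells of cluster 5 (55 against 813), and its part in these ratios was not tested. Gda stood at 63.5 CPM against 206 CPM (ratio 0.309, 0.278 to 0.342) and Nt5e at 13.2 CPM against 29.8 CPM (ratio 0.444, 0.346 to 0.564). Pnp2 had 3 counts against 18 (ratio 0.199, 0.0376 to 0.682), and Slc28a2 was the other of the 4. Of the 17 with enough counts in fibroblast-like cells, 1 was higher and 1 lower (background 14.3%). Of 12 in endothelial-like cells, 2 were higher and 2 lower (background 26.4%).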

How the data were processed

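Bulk RNA-Seq of CFs and NRVMs and single-cell RNA-Seq of nonmyocytes were analysed from the tables of raw counts that the authors deposited. The submitters' processing notes name STAR 2.5.3a, Cell Ranger and the builds mm10 and rn6. Whether the counting used strand is not given in the sources used here. No column of the tables was left out (0). Bulk counts were filtered with filterByExpr, scaled by TMM and tested with edgeR 4.0.16 (R 4.3.3, quasi-likelihood, robust, 1 mean per medium and time over all libraries of an experiment), with Benjamini-Hochberg adjustment and a threshold of 0.05. DESeq2 1.42.0 was an alternative. Library totals were 32184799 to 115824659 counts (CF) and 13481389 to 16977980 (NRVM), and the biological coefficient of variation was 0.0590 and 0.0499.

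Barcodes under 200 genes or over 20% mitochondrial counts were dropped, and Scrublet doublets (154 in ENPP1CKO and 73 in control) were removed. In scanpy 1.11.5, 2000 variable genes without the listed genes, 30 components, 15 neighbours and Leiden resolution 0.5 were used. Cluster 13, with Wt1 among its leading genes, was left unnamed after the data were seen. Counts were summed per class, with exact Poisson limits for levels, exact conditional limits for ratios (95%) and a floor of 3 counts. A ratio needed 20 counts in both libraries together and was called past 1.5-fold. The scripts were tested on simulated data. All 9 genes were named, with up to 3 other pathway genes per comparison (the largest changes among those called) and the 2 genes of most like pattern. The members and lists were chosen with earlier results of these data known.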

Additional observations from a re-analysis of the deposited data

Results flagged for a closer look

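In CFs, 11 effects differed between 48 h and 24 h by edgeR's test of that difference, with adjusted p-values between 2.6e-07 and 0.00289. Over all genes tested, 30.0% passed that test for ENPP1+ATP medium and 31.7% for AMP medium. In ENPP1+ATP medium the effect at 48 h minus that at 24 h was 0.84 for Ada, 0.36 for Adk, 0.46 for Pnp, 0.61 for Slc29a1 and 0.54 for Ampd2, on the log2 scale. In AMP medium it was 0.40 for Ada, 0.41 for Adk, 0.51 for Pnp, 0.51 for Slc29a1, -0.90 for Slc29a2 and 0.49 for Ampd2. The time points share no libraries, and the media share the vehicle libraries.

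In the ENPP1+ATP and AMP media at 24 h, every CF library had Ada above the vehicle libraries and every NRVM library had it below them. In ENPP1+ATP medium its log2 fold change was 0.10 in CFs, which did not pass the test, and -1.06 in NRVMs, a gap of 1.16. In AMP medium it was 0.52 and -0.54, a gap of 1.06. Ada was found by searching the listed genes for this pattern, and the share of all genes that have it was not determined. In ENPP1+ATP medium 49.1% of CF genes and 56.0% of NRVM genes passed against vehicle, and in AMP medium 52.8% and 57.2%. The tables come from different species and experiments, and the difference between them was not tested.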

How the results depend on the processing

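Of 120 CF results with 1144 alternative values, 1100 kept their side of the threshold, 24 lost the call and 20 gained it. Of 48 NRVM results with 528 values these were 515, 11 and 2. Among the values that kept it, 45 in CFs and 13 in NRVMs had the opposite sign, all of results not called. Of 114 single-cell values 109 stayed within counting error. The counts of members below are given without the share of all genes under each setting. They do not show whether the members changed more than other genes did. For members called in CFs, ATP medium at 24 h went from 2 to 0 when a log2 change of 0.5 was required and to between 1 and 2 with 1 library left out. ATP medium at 48 h went from 1 to 3 with DESeq2, 2 with RLE factors, 3 with a replicate block, 3 with only the groups compared, 0 at a change of 0.5 and 0 without any 1 library. At a change of 0.5, ENPP1+ATP against ATP at 48 h went from 4 to 2, the time differences from 5 and 6 to 3 and 3, vehicle over time from 1 to 0, and in NRVMs ENPP1+ATP from 7 to 4 and AMP against ENPP1+ATP from 3 to 1. AMP against ENPP1+ATP in CFs went from 2 to 1 (no filter, or only the groups compared) and 0 (change of 0.5) at 24 h, and from 0 to 1 (DESeq2, or no filter) at 48 h. With 1 library left out it gave 1 to 2 at 24 h, vehicle over time 0 to 1, and the NRVM comparison 1 to 3. In single cells, fibroblast-like members past 1.5-fold went from 2 to 1 (Leiden 1.0, 500 genes and 10% mitochondrial counts, or doublets kept) and 0 (thinned, with 6 members still at 20 counts), endothelial-like ones from 2 to 0 (thinned, with 2 members still at 20 counts, Adk and Nt5c2 not among them), and macrophage-like ones from 2 to 1 without clusters mostly of 1 library, a setting chosen after seeing the data, where Ampd2 turned to 1.08. TMM scaling of the summed profiles shifted macrophage-like and endothelial-like profiles by -0.10 and -0.11 on the log2 scale. The cause was not tested. The labels do not say whether a replicate number links libraries of different groups, and the main fits did not pair by it. Same-number deviations correlated between -0.11 and 0.28 in CFs (best with their own number in 16 of 20 libraries) and between -0.17 and 0.12 in NRVMs (6 of 15). What the libraries of 1 number share was not tested, and the replicate block was the alternative that allowed for it. With 2 or 3 libraries a group, and 1 per genotype in single cells, small differences could not be resolved.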
